A study of Homo sapiens with 12 samples.

Results

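The CXC chemokines of neutrophil recruitment were followed in THP1 cells, a human monocytic leukemia line. The members were chosen by gene symbol from the deposited count table and are CXCL8, CXCL1, CXCL2, CXCL3, CXCL5 and CXCL16, 6 of the 58735 rows, with no threshold on a measured value. RNA sequencing covered 12 libraries in 4 groups of 3: wild-type THP1 in mono-culture, THP1 co-cultured with control ECs, THP1 co-cultured with senECs (endothelial cells made senescent with etoposide), and THP1 co-cultured with EGCG-treated senECs. EGCG is epigallocatechin gallate, a catechin of green tea. The ECs were human umbilical vein endothelial cells below a transwell insert, so that both cell types shared medium but not contact. The culture lasted 24 h, and then the THP1 cells of all 4 groups, mono-culture included, received lipopolysaccharide (LPS) at 100 ng/ml for 2 h. No library without LPS was analysed here, so the levels below are those of stimulated cells. The comparisons address whether the state of neighbouring ECs changes the response of monocytes to LPS.

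Chemokines of the CXC class are small secreted proteins that guide leukocytes along a gradient. CXCL8 (interleukin 8), CXCL1, CXCL2, CXCL3 and CXCL5 carry an ELR motif and draw neutrophils to inflamed tissue through CXCR2, and CXCL8 also through CXCR1. In monocytes LPS induces them within hours through NF-κB and AP-1, and their short-lived mRNAs are set by decay as well as by transcription. CXCL16 differs from the others, since it lacks the ELR motif, is anchored in the membrane, is shed by ADAM10 and ADAM17, and binds CXCR6 on T cells.

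The ELR members lie together on chromosome 4 and CXCL16 lies apart on chromosome 17 (GRCh38, gene models of GENCODE release 29). CXCL8 (ENSG00000169429.10) spans chr4:73740506-73743716 and CXCL1 spans chr4:73869393-73871242, both on the plus strand. CXCL5 (chr4:73995642-73998779), CXCL3 (chr4:74036589-74038807) and CXCL2 (chr4:74097035-74099293) follow on the minus strand. CXCL16 spans chr17:4733526-4739922 on the minus strand.

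The RefSeq start sites of the ELR members share a κB-type element, the DNA letters that NF-κB dimers read. It is shown because these genes have it in common upstream of those start sites. Promoter sequence from RefSeq (GRCh38.p14) was given for 5 of the 6 members, not for CXCL16. Each line below holds 30 bases of the coding strand with GGAATTTCC in capitals.
CXCL8: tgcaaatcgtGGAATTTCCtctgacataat
CXCL1: tggaactccgGGAATTTCCctggcccgggg
CXCL2: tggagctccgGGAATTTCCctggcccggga
CXCL3: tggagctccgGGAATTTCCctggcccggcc
CXCL5: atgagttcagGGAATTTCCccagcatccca
These stretches lie at chr4:73740468-73740497 (CXCL8, plus strand), chr4:73869305-73869334 (CXCL1, plus strand), chr4:74099253-74099282 (CXCL2, minus strand), chr4:74038748-74038777 (CXCL3, minus strand) and chr4:73998748-73998777 (CXCL5, minus strand). The first capital stands 91 bases before the RefSeq start site in CXCL8, 90 in CXCL5, 78 in CXCL1 and CXCL3 and 77 in CXCL2. RefSeq start sites are not all those of the GENCODE spans given above. By the GENCODE spans the CXCL2, CXCL3 and CXCL5 stretches lie inside the gene, and those of CXCL8 and CXCL1 lie before it. Of the 35116 promoters in the table, 145 (0.413%) hold GGAATTTCC on either strand in the 250 bases before the start. The sequence beside the element is nearly the same in CXCL1, CXCL2 and CXCL3 and differs in CXCL8 and CXCL5.

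Other letters were searched in the same window on both strands. GGNNNTTCC, which every GGAATTTCC also matches, occurs in 17.1% of promoters and had a further match in CXCL1, CXCL2 and CXCL3, each from -53 to -45. TGANTCA, an AP-1-type motif found in 6.57% of promoters, was matched in CXCL8 alone (-137 to -131). TATAAA, found in 10.7%, was also matched in CXCL8 alone (-31 to -26). TTGCNNAA, a C/EBP-type motif found in 9.05%, was matched in CXCL2 alone (-188 to -181). A match is a run of letters and not a measured binding site.

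The libraries held 15439836 to 22092600 counts. Levels are given as CPM (counts scaled to library size, with TMM factors) within a gene, and as FPKM (CPM further scaled to exon length) wherever genes are compared with each other. The labels number the libraries 1, 2 and 3 in the mono-culture and control EC groups and 1, 2 and 5 in both senEC groups, without saying what a number marks or that replicates were separate cultures. The p-values therefore measure the spread between these libraries, which may be technical. Replicate 1 stands apart from replicates 3 and 5 in CXCL8, CXCL1, CXCL2 and CXCL3, and from replicate 5 but not replicate 3 in CXCL16. Comparisons are therefore also given within a number or without a library. Monocyte markers were present, with SPI1 at a mean of 288 CPM and CD36 at 229 CPM, whereas FCN1 had 6 and CD68 had 84 counts in all 12 libraries. Of 16 endothelial markers MMRN1 had no count and CDH5, the endothelial cadherin, had 2 in all. Their summed level was 158 to 186 CPM in the mono-culture and control EC groups and 192 to 246 CPM in both senEC groups, most of it PECAM1 (mean 163 CPM), which monocytes also express. The part of this shift in the chemokine values was not tested. Of the 6 neutrophil markers FCGR3B and CEACAM8 had no count. The others were present, with ELANE at a mean of 1014 CPM, CSF3R at 312 CPM, CXCR2 at 7.70 CPM and MPO at 4.25 CPM.

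CXCL8 and CXCL1 were abundant, CXCL2 and CXCL3 were intermediate, CXCL16 was scarce and CXCL5 was nearly absent. Over the 12 libraries the mean level was 216 FPKM for CXCL8, rank 143 of the 56950 genes with a single gene model, and 116 FPKM for CXCL1, rank 276. CXCL2 reached 14.0 FPKM (rank 3487) and CXCL3 reached 5.57 FPKM (rank 6682). CXCL16 stood at 0.617 FPKM (rank 14423) and CXCL5 at 0.0117 FPKM. CXCL1, CXCL2 and CXCL3 are close paralogs, and 1.83% of the 150-base windows of CXCL2 transcripts and 1.15% of those of CXCL3 occur in the other gene. No 150-base window of CXCL8 or CXCL1 was shared with another gene.

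CXCL8, the best-studied neutrophil attractant, varied more within each group than between groups. In mono-culture it was 280, 569 and 613 CPM in replicates 1, 2 and 3. With control ECs it was 243, 406 and 704 CPM. With senECs it was 276, 432 and 931 CPM in replicates 1, 2 and 5. With EGCG-treated senECs it was 251, 408 and 771 CPM. Replicate 1 was the lowest library and replicate 3 or 5 the highest in every group, and all groups overlapped. The group means ± SD (n = 3) ran from 451 ± 234 CPM with control ECs through 476 ± 266 with EGCG-treated senECs and 488 ± 181 in mono-culture to 546 ± 342 with senECs. The highest mean was 1.21 times the lowest, while the highest library of a group was 2.19 to 3.37 times its lowest.

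CXCL1, which signals through CXCR2, had the same shape. Mono-culture libraries held 87.7, 156 and 187 CPM in replicates 1, 2 and 3. Control EC libraries held 85.3, 116 and 196 CPM. SenEC libraries held 100.0, 136 and 289 CPM in replicates 1, 2 and 5. EGCG-treated senEC libraries held 96.4, 132 and 228 CPM. Again replicate 1 was lowest and replicate 3 or 5 highest in all 4 groups. The means ± SD were 132 ± 57.1 CPM (control ECs), 144 ± 51.0 (mono-culture), 152 ± 68.0 (EGCG-treated senECs) and 175 ± 100 (senECs), and no neighbours in this order differed beyond their spread.

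CXCL2, a CXCR2 ligand closely related to CXCL1, was lower than both in FPKM and overlapped between groups. It was 10.6, 19.3 and 23.9 CPM in mono-culture (replicates 1, 2 and 3). It was 13.6, 15.3 and 30.2 CPM with control ECs. It was 17.5, 15.9 and 36.3 CPM with senECs (replicates 1, 2 and 5). It was 17.2, 18.8 and 32.5 CPM with EGCG-treated senECs. Replicate 3 or 5 was the highest in each group, and replicate 1 was the lowest in 3 of 4 groups, the senEC group being the exception. The group means ± SD rose from 17.9 ± 6.75 CPM (mono-culture) through 19.7 ± 9.12 (control ECs) and 22.9 ± 8.40 (EGCG-treated senECs) to 23.2 ± 11.4 (senECs), steps that were all within the spread.

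CXCL3, the least abundant of these paralogs, separated a single library from the others in each group. Mono-culture libraries were at 8.70, 9.69 and 13.2 CPM (replicates 1, 2 and 3). Control EC libraries were at 8.54, 9.36 and 19.7 CPM. SenEC libraries were at 8.93, 8.62 and 23.9 CPM (replicates 1, 2 and 5). EGCG-treated senEC libraries were at 10.2, 8.77 and 18.7 CPM. Replicates 1 and 2 of all groups thus lay between 8.54 and 10.2 CPM, and replicates 3 and 5 between 13.2 and 23.9 CPM. The group means were 10.5 ± 2.37 CPM (mono-culture), 12.5 ± 6.21 (control ECs), 12.6 ± 5.36 (EGCG-treated senECs) and 13.8 ± 8.75 (senECs), and neighbours did not differ beyond their spread.

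CXCL16, the membrane-anchored member, rested on 15 to 59 counts a library. It was 0.933, 1.67 and 1.16 CPM in mono-culture (replicates 1, 2 and 3). It was 0.768, 2.59 and 1.06 CPM with control ECs. It was 1.39, 2.14 and 2.48 CPM with senECs (replicates 1, 2 and 5). It was 0.975, 2.41 and 3.11 CPM with EGCG-treated senECs. The means ± SD ordered as 1.25 ± 0.377 (mono-culture), 1.47 ± 0.981 (control ECs), 2.00 ± 0.555 (senECs) and 2.17 ± 1.09 CPM (EGCG-treated senECs), with overlap between all groups. Replicate 1 was lowest in all 4 groups here too, but replicate 2 was the highest in the mono-culture and control EC groups. Of its 2794 exonic bases 85 (3.04%) overlap exons of MED11 on the opposite strand, and the strand setting of the counting is not given in the sources used here.

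CXCL5, an ELR chemokine made by many epithelial and endothelial cells, had 6 counts in all. Replicate 3 with control ECs had 1 count and replicate 5 with senECs had 5, and the other libraries had 0. A count of 0 allows up to 3 counts in a library, which is 0.136 to 0.194 CPM at these depths, counting error only. CXCL5 did not reach the total of 10 counts required for the fit and was not tested.

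**Figure D1:**
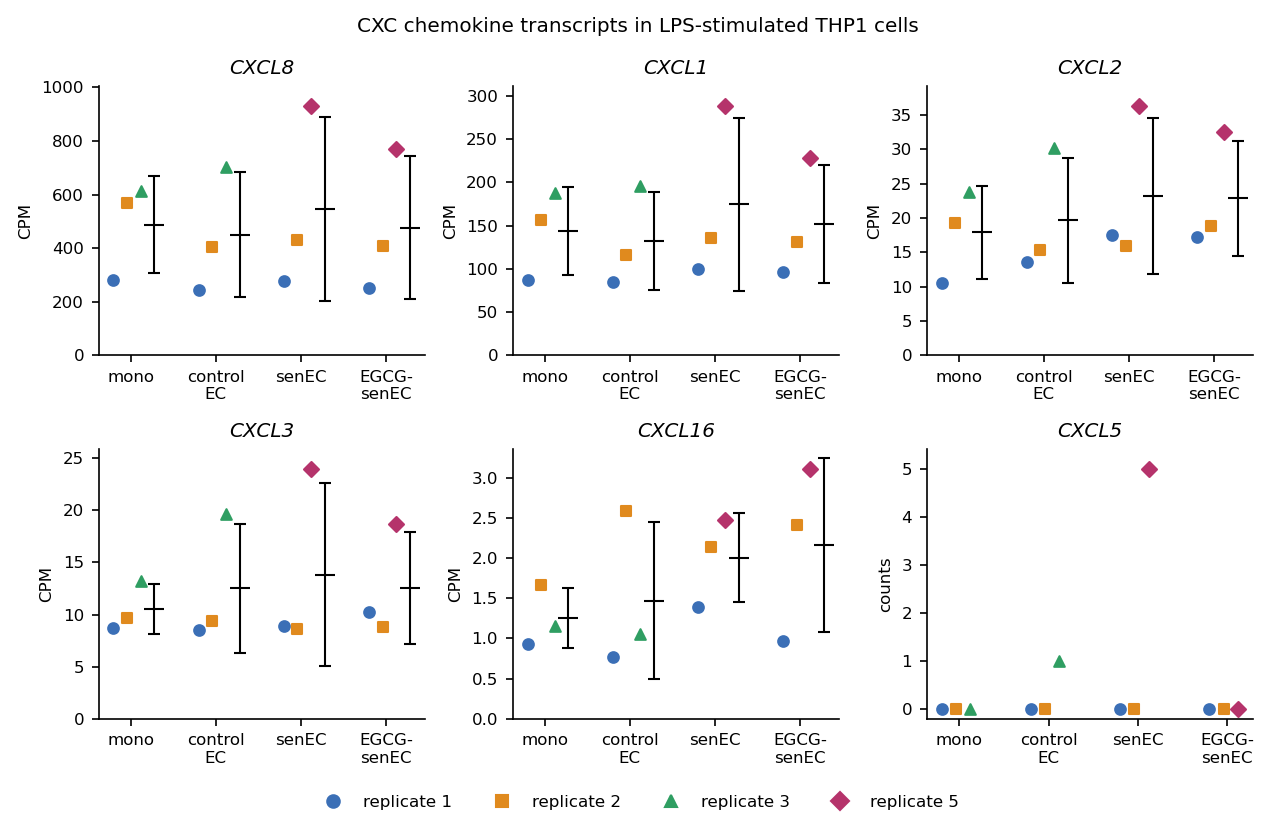
Level of each member in every library by group. Points are single libraries, coloured and shaped by replicate number, in CPM (raw counts for CXCL5), and the black bars give the group mean ± SD of 3 libraries; every vertical axis starts at 0 for CPM. Groups overlap in each panel, and in the CXCL8 and CXCL1 panels replicate 1 is the lowest and replicate 3 or 5 the highest of each group.

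The first comparisons set co-cultured THP1 against mono-culture. No tested member was called in any of them, 0 of 5 with control ECs, 0 of 5 with senECs and 0 of 5 with EGCG-treated senECs, at a Benjamini-Hochberg adjusted p of 0.05 in edgeR's quasi-likelihood test over 25873 genes. Of all genes tested 0.143%, 0.309% and 0.213% were called in these comparisons by edgeR, and 0.464%, 1.34% and 0.889% by DESeq2, which also called 0 of 5 members in each. The 3 comparisons share the mono-culture libraries. With control ECs it was -0.11 on the log2 scale for CXCL8 and -0.12 for CXCL1, and 0.13, 0.24 and 0.24 for CXCL2, CXCL3 and CXCL16. With senECs it was 0.16 for CXCL8, 0.28 for CXCL1, 0.37 for CXCL2, 0.39 for CXCL3 and 0.66 for CXCL16. With EGCG-treated senECs it was -0.03 for CXCL8, 0.08 for CXCL1, 0.35 for CXCL2, 0.26 for CXCL3 and 0.79 for CXCL16.

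The standard errors ranged from 0.34 (CXCL2) to 0.47 (CXCL16), so these differences were of the size of their errors. The 95% interval of the log2 fold change of CXCL8 ran from -0.93 to 0.70 with control ECs, from -0.65 to 0.98 with senECs and from -0.85 to 0.78 with EGCG-treated senECs. For CXCL16 it ran from -0.25 to 1.57 with senECs (edgeR, adjusted p = 0.65) and from -0.12 to 1.69 with EGCG-treated senECs (edgeR, adjusted p = 0.66). The median log2 fold change of the 5 tested members was 0.13, 0.37 and 0.26 in these comparisons, against 0.01, -0.02 and 0.00 over all genes tested. Groups overlapped for every tested member, whereas 12.8%, 16.7% and 14.1% of all genes tested had groups that did not overlap.

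Within the shared numbers the values differed from the pooled ones. CXCL8 with control ECs was 0.865, 0.713 and 1.15 times its mono-culture level in numbers 1, 2 and 3. With senECs it was 0.986 and 0.759 times in numbers 1 and 2, and with EGCG-treated senECs 0.895 and 0.717 times, so that it was below mono-culture in both shared numbers while the pooled difference with senECs was above 0. CXCL1, CXCL2 and CXCL3 were above mono-culture in number 1 and below it in number 2 in both senEC groups, CXCL2 for example 1.66 and 0.823 times with senECs. CXCL16 was above it in both numbers, at 1.49 and 1.28 times with senECs and 1.05 and 1.45 times with EGCG-treated senECs. With the group as the only term of the fit, the lowest unadjusted p of any tested member in any of the 6 comparisons was 0.11 in edgeR (CXCL16, EGCG-treated senECs against mono-culture).

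Co-culture with senECs was then compared with co-culture with control ECs, the contrast of endothelial senescence. All 5 log2 fold changes were above 0 and 0 of 5 were called. They were 0.28 ± 0.42 (standard error) for CXCL8, 0.40 ± 0.36 for CXCL1, 0.24 ± 0.34 for CXCL2, 0.14 ± 0.36 for CXCL3 and 0.42 ± 0.45 for CXCL16. The adjusted p ranged from 0.82 (CXCL1) to 0.95 (CXCL3) in edgeR. The interval for CXCL8 ran from -0.54 to 1.09 and that for CXCL1 from -0.30 to 1.10. No gene of the 25873 was called in this comparison (0.0%) by edgeR or DESeq2, with 1709 at an unadjusted p under 0.05 in edgeR, and the members' median of 0.28 stood beside -0.01 for all genes tested. The 10 reference genes, ACTB and GAPDH among them, were also all above 0 here, with a median of 0.18.

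In the fit with the group alone, the direction of that contrast turned in 4 members when senEC replicate 5 was left out. That leaves senEC numbers 1 and 2 against control EC numbers 1, 2 and 3, so the numbers are unbalanced. Without senEC replicate 5 it was -0.35 on the log2 scale for CXCL8, -0.17 for CXCL1, -0.23 for CXCL2 and -0.51 for CXCL3, and it stayed at 0.24 for CXCL16. Without control EC replicate 3 the values were 0.75, 0.79, 0.68 and 0.62 for CXCL8, CXCL1, CXCL2 and CXCL3. Among the 12 libraries used, number 5 occurs only in the senEC groups and number 3 only in the mono-culture and control EC groups, so at these numbers the group and the number cannot be told apart. Within the shared numbers 1 and 2, CXCL1 with senECs was 1.17 times its level with control ECs in both, CXCL8 was 1.14 and 1.06 times, CXCL2 1.29 and 1.04 times, and CXCL3 1.05 and 0.921 times. CXCL16 was 1.82 times in number 1 and 0.826 times in number 2.

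The effect of EGCG on senECs was addressed by comparing both senEC groups. Again 0 of 5 members were called, as were 0.0% of all genes tested by edgeR and by DESeq2 (575 at an unadjusted p under 0.05 in edgeR). Log2 fold changes were -0.20 ± 0.42 (standard error) for CXCL8, -0.20 ± 0.36 for CXCL1, -0.02 ± 0.33 for CXCL2, -0.13 ± 0.36 for CXCL3 and 0.12 ± 0.45 for CXCL16, each with an adjusted p of 1 in edgeR. The interval for CXCL8 ran from -1.01 to 0.62 and that for CXCL1 from -0.90 to 0.50. With the number as a further term of the fit these intervals were narrower and still held 0. That for CXCL8 ran from -0.338 to 0.006 around -0.166, and that for CXCL1 from -0.329 to 0.029 around -0.150. In that fit CXCL3 was at -0.065, CXCL2 at 0.0043 and CXCL16 at 0.032, and 0 of 5 were called. Its spread came almost wholly from all genes together. Both groups carry the numbers 1, 2 and 5. Within them CXCL8 with EGCG-treated senECs was 0.908, 0.945 and 0.828 times its level with untreated senECs, below 1 in 3 of 3, and CXCL1 was 0.965, 0.966 and 0.790 times, also below 1 in 3 of 3. CXCL2 was 0.985, 1.18 and 0.895 times, CXCL3 1.15, 1.02 and 0.781 times and CXCL16 0.699, 1.13 and 1.25 times, with no common direction. An exact permutation test of 3 against 3 libraries has 0.1 as its smallest p. That limit is for libraries taken without their numbers. Apart from the fit with the number as a further term, the ratios within numbers were not tested. The share of all genes below 1 in 3 of 3 was not counted. CXCL8 and CXCL1 also rose and fell together (Pearson's r of 0.983 over the 12 libraries), so their ratios are not separate observations.

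The co-culture with EGCG-treated senECs against that with control ECs gave 0.08 for CXCL8, 0.20 for CXCL1, 0.22 for CXCL2, 0.02 for CXCL3 and 0.55 for CXCL16 on the log2 scale, with 0 of 5 called and 0.0% of all genes tested called by edgeR and by DESeq2 (1177 at an unadjusted p under 0.05 in edgeR). Within the numbers 1 and 2, CXCL8 was 1.03 and 1.01 times its level with control ECs, CXCL1 1.13 times in both, CXCL2 1.27 and 1.23 times, CXCL3 1.20 and 0.937 times and CXCL16 1.27 and 0.931 times. The interval for CXCL8 ran from -0.73 to 0.89. Groups overlapped for every tested member in the comparisons among the co-cultures, where 11.0% (senECs against control ECs), 5.48% (EGCG-treated against untreated senECs) and 9.49% (EGCG-treated senECs against control ECs) of all genes tested did not overlap. These comparisons share libraries with each other and are no independent counts.

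A test for any difference among the 4 groups called 0 of 5 members, against 0.189% of all genes tested (DESeq2 0 of 5, against 1.06%). The edgeR adjusted p was 0.99 for CXCL8, 0.96 for CXCL1, 0.95 for CXCL2, 0.97 for CXCL3 and 0.85 for CXCL16. These p-values do not show that the groups were alike, since the 95% intervals of this fit were wide. That of CXCL8 with senECs against control ECs, for example, ran from -0.54 to 1.09 on the log2 scale. With the number as a further term of the fit it was narrower, from -0.12 to 0.27 around 0.07. In the fit with the group alone, the interval of every tested member held 0 in each of the 6 comparisons.

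**Figure D2:**
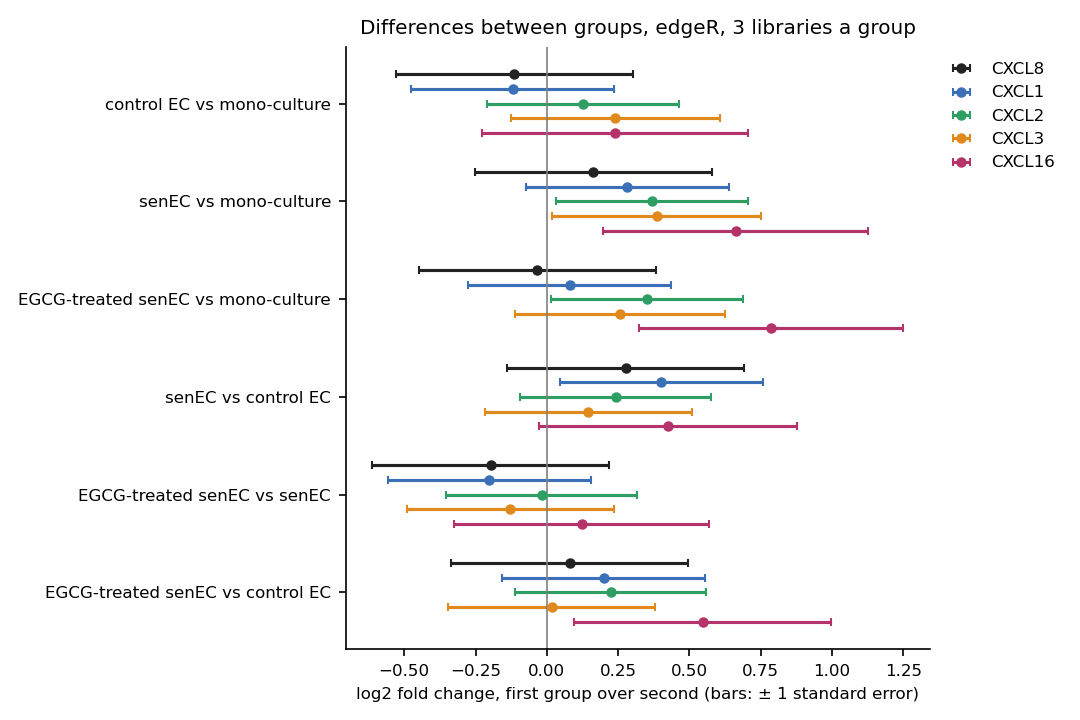
Log2 fold change of the 5 tested members in the 6 comparisons, first group over second, from edgeR with 3 libraries a group. Bars give ± 1 standard error; the largest difference is 0.79 for CXCL16 with EGCG-treated senECs against mono-culture, and no member was called in any comparison.

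The replicate number separated the chemokine levels more than the group did. In an edgeR fit with group and number as terms, the number term was called for 5 of 5 tested members, against 9.61% of all genes tested. The Benjamini-Hochberg adjusted p in edgeR was 1.1e-71 for CXCL8, 2.0e-49 for CXCL1, 7.1e-20 for CXCL2, 2.9e-17 for CXCL3 and 0.0073 for CXCL16. This fit took its spread almost wholly from all genes together (prior degrees of freedom 1195), so the very small values rest on that pooling. DESeq2 called 4 of 5, against 6.63% of all genes tested, with an adjusted p of 0.056 for CXCL16, and CXCL16 was also not called by edgeR without control EC replicate 2 or without EGCG-treated senEC replicate 1.

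Relative to replicate 1, CXCL8 was higher by 0.78 ± 0.08 (standard error) on the log2 scale in replicate 2, by 1.29 ± 0.10 in replicate 3 and by 1.74 ± 0.10 in replicate 5. CXCL1 was higher by 0.55 ± 0.08, 1.10 ± 0.10 and 1.44 ± 0.10. For CXCL2 the differences were 1.01 ± 0.15 in replicate 3 and 1.11 ± 0.14 in replicate 5, both called, and 0.26 ± 0.11 in replicate 2, not called. For CXCL3 they were 0.85 ± 0.17 and 1.22 ± 0.17, both called, and 0.01 ± 0.14 in replicate 2, not called. For CXCL16 they were 1.12 ± 0.31 in replicate 2 and 1.33 ± 0.39 in replicate 5, both called, and 0.27 ± 0.44 in replicate 3, not called. CXCL2 and CXCL3 thus passed the test in replicates 3 and 5 and not in 2, and CXCL16 in 2 and 5 and not in 3. Of all genes tested 4.88%, 3.8% and 8.16% were called in replicates 2, 3 and 5 against 1.

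In single libraries, CXCL8 in replicate 2 was 1.56 to 2.03 times its level in replicate 1 of the same group over the 4 groups. In replicate 5 it was 3.07 and 3.37 times the level of replicate 1, and in replicate 3 it was 2.19 and 2.90 times. CXCL3 in replicate 2 was 0.857 to 1.11 times its level in replicate 1. The biological coefficient of variation, edgeR's measure of spread within groups, was 0.353 for CXCL8 with the group alone and 0.0817 with the number as a further term. For CXCL1 it was 0.303 and 0.0802, for CXCL2 0.287 and 0.0987, for CXCL3 0.310 and 0.113 and for CXCL16 0.364 and 0.239, and the median over all genes tested was 0.271 and 0.232.

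**Figure D3:**
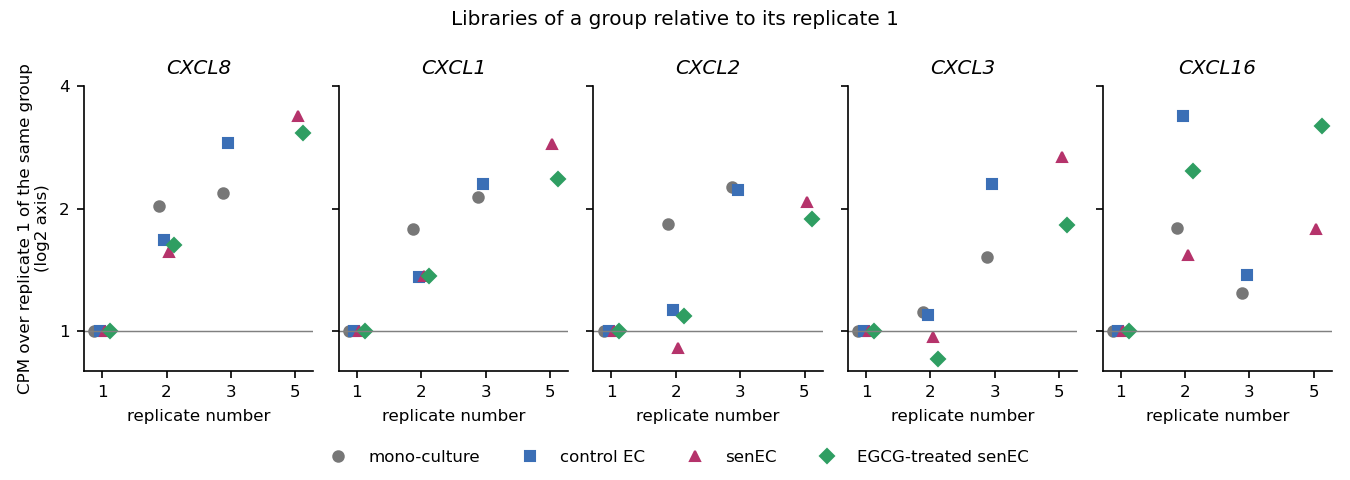
CPM of each library over replicate 1 of its own group, on a log2 axis, against the replicate number (which is a label and has no order). CXCL8 in replicate 2 lies at 1.56 to 2.03 times and in replicate 5 at 3.07 and 3.37 times replicate 1, whereas CXCL3 in replicate 2 lies at 0.857 to 1.11 times.

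The number term reached unequal shares of the gene lists around these chemokines. It was called for 12 of 14 tested early LPS cytokines and for 17 of 22 transcription factors and inhibitors of the CXCL8 promoter. It was called for 5 of 10 proteases and sheddases of CXC ligands, 3 of 7 CXC receptors, 2 of 7 other CXC ligands and 3 of 12 regulators of mRNA decay. Reference genes gave 2 of 10, monocyte markers 8 of 12, neutrophil markers 2 of 4 and endothelial markers 1 of 13. Of all genes tested 9.61% were called.

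The chemokines did not keep fixed proportions to each other. CXCL1 stood at 48.2 to 67.4% of the CXCL8 level in FPKM, CXCL2 at 5.15 to 10.4% and CXCL3 at 1.74 to 4.18%. Replicate 1 had the highest CXCL1 share and the highest CXCL3 share of its group in 4 of 4 groups, and the highest CXCL2 share in 3 of 4. The CXCL2 share in mono-culture was 5.71, 5.15 and 5.90% in replicates 1, 2 and 3, and with control ECs it was 8.48, 5.73 and 6.50%. With senECs it was 9.60, 5.58 and 5.92% in replicates 1, 2 and 5, and with EGCG-treated senECs it was 10.4, 6.99 and 6.40%. At the same number, the CXCL2 share was higher than in mono-culture in 3 of 3 control EC libraries, 2 of 2 senEC libraries and 2 of 2 EGCG-treated senEC libraries, and so was the CXCL3 share. These shares were not tested, and the co-culture groups are set against the same mono-culture libraries.

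**Figure D4:**
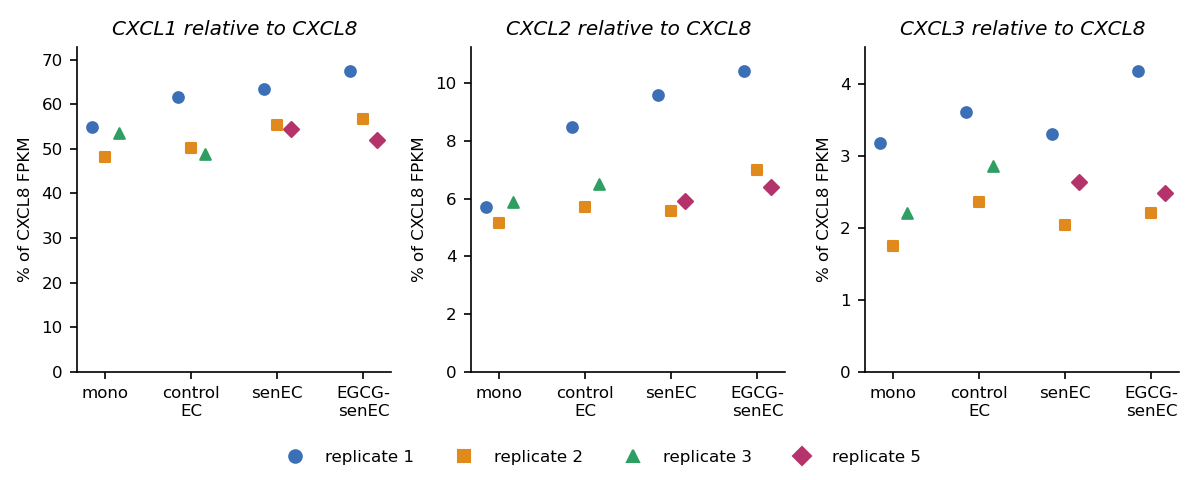
CXCL1, CXCL2 and CXCL3 as a percentage of the CXCL8 level (FPKM) in every library, by group and replicate number; axes start at 0. CXCL1 lies between 48.2 and 67.4%, CXCL2 between 5.15 and 10.4% and CXCL3 between 1.74 and 4.18%, with replicate 1 highest in each group except for CXCL2 in mono-culture.

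Genes with the profile most like each member were ranked by Pearson's r of log2(CPM + 2) over the 12 libraries, among 10816 other genes with a mean of at least 5 CPM. The libraries share numbers and groups, so r is a description. Many genes came close, since r was over 0.9 for 178 genes with CXCL8, 185 with CXCL1 and 86 with CXCL2. It was over 0.9 for 26 genes with CXCL3 and for 0 with CXCL16. Nearest to CXCL8 were GBP2 (r = 0.986), an interferon-inducible GTPase, PNRC1 (0.979) and MAP3K8 (0.979), a kinase of LPS signalling. Nearest to CXCL1 were NINJ1 (0.989), GBP2 (0.987) and RIPK2 (0.984), the kinase of NOD receptors. CXCL2 was nearest to PROS1 (0.972), the anticoagulant protein S, PTX3 (0.954), a secreted pentraxin, and JUN (0.953), an AP-1 subunit. CXCL3 was nearest to PDE4B (0.941), a cAMP phosphodiesterase, JDP2 (0.938) and GIMAP8 (0.933). CXCL16 was nearest to SLC11A1 (0.892), a metal transporter of phagosomes, CHTOP (0.892) and EDEM2 (0.888). On deviations from group means 1 of these 3 genes stayed among the nearest for CXCL8, CXCL1 and CXCL3, 2 for CXCL2 and 0 for CXCL16.

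Other CXC ligands were low. Of 11 further ligands 7 were tested and 0 were called in any comparison, PF4 and CXCL9 had no count, and the most abundant were CXCL6, an ELR chemokine (mean 4.15 CPM), and CXCL10, an interferon-induced attractant of T cells (3.72 CPM). Of 9 CXC and atypical receptors 7 were tested and 0 called. CXCR4, the receptor of CXCL12, was the most abundant at a mean of 25.9 CPM, followed by ACKR3 at 14.9 CPM. CXCR2, the receptor of the ELR chemokines, averaged 7.70 CPM and CXCR1 had 4 counts in all.

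Proteases that trim or shed CXC ligands ran from a mean of 0.0135 CPM to 1073 CPM, so that some were abundant and others nearly absent. Of 11 such genes 10 were tested and 0 called, with PRTN3 at a mean of 1073 CPM and ELANE at 1014 CPM, both serine proteases of myeloid granules. Of 12 regulators of mRNA decay and stability all were tested and 0 called, led by HNRNPD (559 CPM), which binds AU-rich elements, and KHSRP (469 CPM). Of 15 early LPS cytokines and response genes 14 were tested and 0 called, led by TNFAIP3 (1157 CPM), an inhibitor of NF-κB signalling, and IL1B (374 CPM). IL1B averaged 337 ± 247 CPM in mono-culture and 424 ± 384 CPM with senECs, and was not called. None of 10 reference genes was called, with ACTB at a mean of 5877 CPM and RPLP0 at 1808 CPM.

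With the group as the only term of the fit, the genes of these lists called between groups were POU2F2, BCL3 and CEBPB and a monocyte marker. The first 3 come from the list of transcription factors and inhibitors of the CXCL8 promoter, and their action on CXCL8 was not tested. POU2F2, an octamer-binding factor, averaged 18.9 ± 1.41 CPM in mono-culture. In co-culture it averaged 63.9 ± 2.76 CPM (control ECs), 64.3 ± 9.18 (senECs) and 70.9 ± 3.64 (EGCG-treated senECs). It rose in every co-culture against mono-culture, by 1.76 ± 0.12, 1.77 ± 0.12 and 1.91 ± 0.12 on the log2 scale (edgeR adjusted p = 1.2e-07, 1.1e-07 and 2.9e-08). BCL3, a nuclear IκB protein that acts with NF-κB p50 and p52, averaged 67.1 ± 10.7 CPM in mono-culture, 105 ± 7.68 with control ECs, where it was not called, 128 ± 23.9 with senECs and 126 ± 8.02 with EGCG-treated senECs. It rose against mono-culture by 0.93 ± 0.13 with senECs (edgeR adjusted p = 0.0021) and by 0.91 ± 0.13 with EGCG-treated senECs (edgeR adjusted p = 0.0038). CEBPB, a C/EBP factor of the inflammatory response, rose with senECs from 46.9 ± 2.59 to 73.0 ± 13.9 CPM, by 0.64 ± 0.13 on the log2 scale (edgeR adjusted p = 0.032). It averaged 64.3 ± 4.26 CPM with control ECs and 70.6 ± 7.87 CPM with EGCG-treated senECs and was not called there. The CEBPB call was lost without any 1 of the mono-culture libraries, senEC replicate 2 or senEC replicate 5 (edgeR adjusted p up to 0.18), and those of POU2F2 and BCL3 passed with each library left out. Against mono-culture 1 of 22 genes in this list was called for control ECs, 3 for senECs and 2 for EGCG-treated senECs, all higher, and 0 in the comparisons among co-cultures.

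Among the monocyte markers CD14, the LPS co-receptor, was called once in this fit. It averaged 8.92 ± 2.67 CPM in mono-culture and 38.2 ± 25.1 CPM with senECs, a rise of 2.09 ± 0.42 on the log2 scale (edgeR adjusted p = 0.036). The call was lost in 7 of 12 fits with 1 library left out (each mono-culture library, control EC replicate 2, senEC replicates 2 and 5 and EGCG-treated senEC replicate 2), with the highest value without senEC replicate 5 (edgeR adjusted p = 0.25). It averaged 18.9 ± 6.91 CPM with control ECs and 27.5 ± 14.4 CPM with EGCG-treated senECs. Against mono-culture, the 5 tested chemokines were not called in the comparisons in which POU2F2, BCL3, CEBPB or CD14 was, and no test set the chemokines against these genes.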

How the data were processed

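Whole-number read counts for each gene symbol, not normalized, were deposited by the authors from paired-end sequencing. HISAT2 and hg38 are named in the submitters' processing notes, and the counting program, annotation and strand setting are not given in the sources used here. The 58735 rows match GENCODE release 29 symbols. Groups of the 12 libraries used came from the sample labels. A further 4 count columns match no described sample and were not used; 1 of these is named like a senEC library with number 3, and its condition is not described.

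The 25873 genes summing to 10 counts or more were tested with edgeR 4.0.16 (quasi-likelihood, TMM) in R 4.3.3, all 12 libraries in 1 model with the group as the only term, Benjamini-Hochberg adjusted p under 0.05 and no minimum fold change. Standard errors were derived from the log2 fold change and its F statistic, and intervals of 95% from the standard error. The number term was tested in a model with group and number. FPKM used exon lengths of GENCODE release 29. Alternatives were DESeq2 1.42.0, its size factors, no filter on low counts, only the 6 libraries compared, the number as a block, CXCL1 to CXCL3 summed, and each library left out. The scripts were tested on simulated data.

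The members and lists were chosen with earlier results of these data known. Named genes are all members, list genes called in at least 1 comparison or otherwise the 2 with the highest mean CPM, and the 3 genes most like each member; other genes (CXCR2, CXCR1, PF4, CXCL9 and markers) were named after their values were seen. Depth was 15439836 to 22092600 counts a library. Intervals and floors cover counting error or the spread between libraries only.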

Additional observations from a re-analysis of the deposited data

How the results depend on the processing

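No tested member was called in any of the 6 comparisons under DESeq2, DESeq2 size factors, no filter on low counts, only the 6 libraries compared, CXCL1 to CXCL3 summed, the replicate number as a block, or any single library left out. The test of any group difference called none under these alternatives either. It was not run with only the 6 libraries compared or with CXCL1 to CXCL3 summed. The labels do not say whether the replicate numbers pair the libraries. Over 14 pairs of libraries with the same number, the correlation of deviations from group means across 10832 genes (genes are not independent) ran from 0.0467 to 0.683. Of the 12 libraries 8 correlated best with their own number, and these were the ones numbered 1 or 2. Each library numbered 3 correlated best with one numbered 5, and the reverse (0.604 for control EC replicate 3 with senEC replicate 5). With the block 0 of 5 members were called in each comparison, and all genes called moved to 469, 709 and 424 against mono-culture (control ECs, senECs, EGCG-treated senECs; 37, 80 and 55 without it), to 153, 13 and 34 among the co-cultures (senECs against control ECs, EGCG-treated against untreated senECs, EGCG-treated senECs against control ECs; 0, 0 and 0 without it) and to 735 for any group difference (49 without it). The sign turned under the block, without a call, for CXCL8 with senECs against mono-culture (-0.097), CXCL1 with EGCG-treated senECs against mono-culture (-0.062), CXCL3 with senECs against control ECs (-0.048), CXCL2 with EGCG-treated against untreated senECs (0.0043), and CXCL8 (-0.094) and CXCL3 (-0.11) with EGCG-treated senECs against control ECs. In the 6 comparisons the lowest unadjusted p-values under the block (edgeR) were 0.0067 for CXCL8 (-0.26, 95% interval -0.45 to -0.07) and 0.034 for CXCL2 (0.31, 0.02 to 0.59) with EGCG-treated senECs against mono-culture, 0.029 for CXCL1 with senECs against control ECs (0.23, 0.02 to 0.43) and 0.037 for CXCL2 with senECs against mono-culture (0.30, 0.02 to 0.59). For any group difference under the block, CXCL8 had an unadjusted p of 0.029 (edgeR, adjusted p = 0.34). The block also added calls in the gene lists. JUNB, BCL3, CEBPB, POU2F2, FCGR1A, CD14 and IL10 were then higher in all co-cultures than in mono-culture, NFKB2, RELB and FOSL1 higher and TNF lower in both senEC groups. MMP9 was higher and CSF1R, CXCR2 and CXCL12 lower with control ECs, ELANE, GAPDH, CCL20, SPI1, PECAM1 and DUSP1 higher with senECs, and IL23A lower with EGCG-treated senECs. Among co-cultures, CD14, FOSL1, FOSB and IL10 were higher with senECs, and FOSB with EGCG-treated senECs, than with control ECs. With the block and 1 library left out, a combination chosen after seeing the data, the members called ran from 0 to 1: CXCL2, higher with senECs and with EGCG-treated senECs than in mono-culture without mono-culture replicate 2, and CXCL8, lower with EGCG-treated senECs than in mono-culture without mono-culture replicate 3. Summing CXCL1 to CXCL3 gave -0.065 for control ECs against mono-culture, where CXCL2 and CXCL3 alone were above 0. DESeq2 called 120, 347 and 230 genes against mono-culture, 275 for any difference and 1716 for the number term. Without a filter the counts were 223, 588, 377, 114, 14 and 43 in the order above, and 635 for any difference. With only the 6 libraries compared they were 68 (control ECs) and 109 (EGCG-treated senECs), both against mono-culture. The cause of these moves was not tested. Leaving out 1 library, all genes called ran from 11 to 48, 22 to 260 and 12 to 104 against mono-culture, with the lowest counts all without mono-culture replicate 2. The number term called 4 to 5 members when 1 library was left out, and 4 (not CXCL3) with 1502 genes in all when number 1 was set against the others (2486 genes in the main test). Leaving out 1 library turned the sign of 25 of the 30 uncalled log2 fold changes at least once, with these ranges. For control ECs against mono-culture, CXCL8 -0.59 to 0.19, CXCL1 -0.51 to 0.12, CXCL2 -0.31 to 0.39, CXCL3 -0.24 to 0.45 and CXCL16 -0.46 to 0.55. For senECs against mono-culture, CXCL8 -0.46 to 0.47, CXCL1 -0.28 to 0.55, CXCL2 -0.10 to 0.62 and CXCL3 -0.27 to 0.63. For EGCG-treated senECs against mono-culture, CXCL8 -0.57 to 0.27, CXCL1 -0.33 to 0.32 and CXCL3 -0.15 to 0.46. For senECs against control ECs, CXCL8 -0.35 to 0.75, CXCL1 -0.17 to 0.79, CXCL2 -0.23 to 0.68 and CXCL3 -0.51 to 0.62. For EGCG-treated against untreated senECs, CXCL8 -0.73 to 0.43, CXCL1 -0.62 to 0.37, CXCL2 -0.36 to 0.46, CXCL3 -0.54 to 0.52 and CXCL16 -0.24 to 0.47. With EGCG-treated senECs set against control ECs, CXCL8 -0.45 to 0.56, CXCL1 -0.22 to 0.59, CXCL2 -0.12 to 0.66 and CXCL3 -0.39 to 0.49. Counting error is small beside these ranges except for CXCL16 (15 to 59 counts a library).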
